A study of Mus musculus with 4 samples.

Results

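Neurexins, neuroligins, cerebellins and Lrrtm4 encode proteins that join the presynaptic and postsynaptic membranes across the synaptic cleft. The 9 genes described here, Nrxn2, Nrxn3, Nlgn1, Nlgn2, Nlgn3, Cbln1, Cbln2, Cbln4 and Lrrtm4, were taken by symbol from 20032 genes in a table of RNA sequencing values from the mouse olfactory bulb. All 9 were found, and all 9 had a mean of at least 1 FPKM (fragments scaled by transcript length and by the size of the library), the level set for testing, which 13434 genes reached. The study compared olfactory bulbs at postnatal day 11 from 2 groups of 2 libraries each, on a mixed background of C57BL/6J, 129S6 and CD1. The mutants, DCKO below, were Sp8 Flox/Flox; Sp9 Flox/Flox mice with Dlx5/6-CIE, a Cre driver active in GABAergic precursors, so cells outside that lineage keep both transcription factor genes. The controls were littermates with no Cre, and the labels do not state which floxed alleles they carried. Nor do the labels say whether the replicates of a group came from separate animals, though sex-linked genes below tell the 2 DCKO libraries apart. The p-values measure only the spread between these samples.

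Neurexins are presynaptic receptors with a large extracellular part. Each neurexin gene gives a long alpha form and a short beta form from separate promoters. Neuroligins and the LRRTM proteins bind them from the postsynaptic side, and secreted cerebellins link neurexins to delta glutamate receptors. In the olfactory bulb, granule cell interneurons and mitral or tufted cells contact each other through reciprocal synapses between dendrites, which release glutamate in one direction and GABA in the other.

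The start regions of the 3 members that carried the largest changes are shown first, because Nrxn3 and Lrrtm4 fell and Cbln4 rose. Start regions in the RefSeq table (GRCm38.p6, from 250 bases before to 50 bases after an annotated start) were matched for 5 of the 9 members. For Nrxn3 the table holds 3 starts, all on the + strand, at chr12:88794254-88794553, chr12:88953140-88953439 and chr12:89812233-89812532. GENCODE M21 places the start of a coding transcript of 7922 bases in the upstream window and that of one of 4634 bases in the middle window. The downstream window holds the common start of 2 shorter coding transcripts, of 2699 and 3654 bases. A further coding transcript, of 3303 bases, starts at 89193106, in none of the 3 windows. The first Lrrtm4 window lies at chr6:80018627-80018926 (+ strand) and the Cbln4 window at chr2:172043417-172043716 (- strand). Capitals mark GGGCGG on either strand (CCGCCC where it lies on the opposite strand), the GC box that Sp family zinc fingers are known to bind.
Nrxn3 upstream start: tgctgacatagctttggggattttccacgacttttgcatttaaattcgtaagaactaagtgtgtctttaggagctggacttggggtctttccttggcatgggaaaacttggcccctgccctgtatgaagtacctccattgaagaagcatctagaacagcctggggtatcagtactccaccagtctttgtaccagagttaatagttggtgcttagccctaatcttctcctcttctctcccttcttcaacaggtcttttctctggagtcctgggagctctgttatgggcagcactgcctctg
Nrxn3 middle start: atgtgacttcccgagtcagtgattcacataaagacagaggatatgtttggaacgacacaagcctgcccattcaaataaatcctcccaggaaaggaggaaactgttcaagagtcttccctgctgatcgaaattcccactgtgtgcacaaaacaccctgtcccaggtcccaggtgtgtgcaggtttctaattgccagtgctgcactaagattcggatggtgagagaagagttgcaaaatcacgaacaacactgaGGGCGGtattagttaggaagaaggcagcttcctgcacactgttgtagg
Nrxn3 downstream start: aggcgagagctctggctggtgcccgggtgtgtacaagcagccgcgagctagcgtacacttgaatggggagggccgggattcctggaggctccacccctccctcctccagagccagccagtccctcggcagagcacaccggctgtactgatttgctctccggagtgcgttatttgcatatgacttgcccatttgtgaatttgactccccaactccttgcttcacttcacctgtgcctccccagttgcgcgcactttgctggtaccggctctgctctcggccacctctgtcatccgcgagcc
Lrrtm4 first start: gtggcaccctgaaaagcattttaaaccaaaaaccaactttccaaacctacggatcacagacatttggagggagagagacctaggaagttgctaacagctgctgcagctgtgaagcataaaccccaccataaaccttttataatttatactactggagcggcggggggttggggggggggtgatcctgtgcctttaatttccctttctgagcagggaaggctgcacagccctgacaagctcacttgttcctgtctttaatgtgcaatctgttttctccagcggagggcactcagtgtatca
Cbln4 start: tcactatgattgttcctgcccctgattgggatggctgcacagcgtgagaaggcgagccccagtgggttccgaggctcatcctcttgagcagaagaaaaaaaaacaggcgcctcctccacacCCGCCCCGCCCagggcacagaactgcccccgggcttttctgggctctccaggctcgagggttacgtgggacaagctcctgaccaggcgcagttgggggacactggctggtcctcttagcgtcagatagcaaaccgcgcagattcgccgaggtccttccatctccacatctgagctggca
The motif stood in 3 of the 9 windows of the matched members, namely the middle Nrxn3 window once, the Cbln4 window as 2 copies that overlap by a base, and the Nlgn2 window 3 times. It stood in 35.7% of all 32851 start regions in the table. The GC content of the middle Nrxn3, Cbln4 and Nlgn2 windows was 47.7%, 60.3% and 68.7%, against a median of 52.7% over all regions. Whether Sp8 or Sp9 binds or regulates any of these genes directly was not tested.

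The libraries matched their labels in both targeted genes. Sp8 stood at 32.0 and 26.7 FPKM among control libraries against 1.68 and 2.03 FPKM in DCKO. Sp9 stood at 24.0 and 30.7 FPKM among control libraries against 0.0674 and 0.236 FPKM in DCKO. The deposited scaled counts summed to between 14632502 and 15400982 per library. By limma on log2(FPKM + 1) with Benjamini-Hochberg adjusted p below 0.05, 1926 genes fell and 1747 rose, or 1580 and 2225 when the library medians were set equal. Leaving out control 1 gave 1030 and 1159, and leaving out control 2 gave 1036 and 806. Marker genes of several cell types moved with genotype, where 14.3% of all tested genes fell and 13% rose. Of 12 markers of granule and other bulb interneurons, 11 fell (summed FPKM 1324 to 1335 in controls and 432 to 477 in DCKO), and all 8 tested mitral and tufted cell markers rose (752 to 819 and 1461 to 1642). Astrocyte markers rose for 5 of 7 (461 to 470 and 815 to 890), microglia markers for 5 of 7 (84.2 to 85.8 and 133 to 141), olfactory ensheathing cell markers for 3 of 6 (2356 to 2438 and 3367 to 3912) and endothelial markers for 1 of 5 (118 to 121 and 154 to 156). None of 8 oligodendrocyte lineage markers was called, and of 7 pan-neuronal markers 1 fell and 1 rose. No marker was listed at 0 in any library, and the part of the marker shifts in the results below was not tested. In whole-tissue RNA, fewer cells of a type and less RNA per cell cannot be told apart. DCKO 1 was the only library with Xist, at 77.0 FPKM against at most 0.0355 in the other 3, and the only library in which the Y-linked Ddx3y and Eif2s3y were listed at 0. The 2 DCKO libraries therefore came from different animals. Both controls, like DCKO 2, held the Y-linked genes, so these genes do not tell the controls apart.

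Among the 9 adhesion genes, 4 fell in DCKO (Nrxn2, Nrxn3, Nlgn3 and Lrrtm4) and 1 rose (Cbln4), or 5 of 9 in all. Over all tested genes 14.3% fell and 13% rose, or 27.3% in all. The members were chosen with earlier results of these data known, so this comparison is not an independent one. Nlgn1, Nlgn2, Cbln1 and Cbln2 did not pass. The change ranged from -1.69 for Lrrtm4 to 0.67 for Cbln4 on the log2(FPKM + 1) scale, with a median of -0.30 against -0.02 over all tested genes. The DCKO libraries lay below both controls for 5 members and above both for 2. That total of 7 of 9 is close to the background, since the groups did not overlap for 71.5% of tested genes (37.6% with DCKO lower and 33.9% with DCKO higher).

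**Figure D1:**
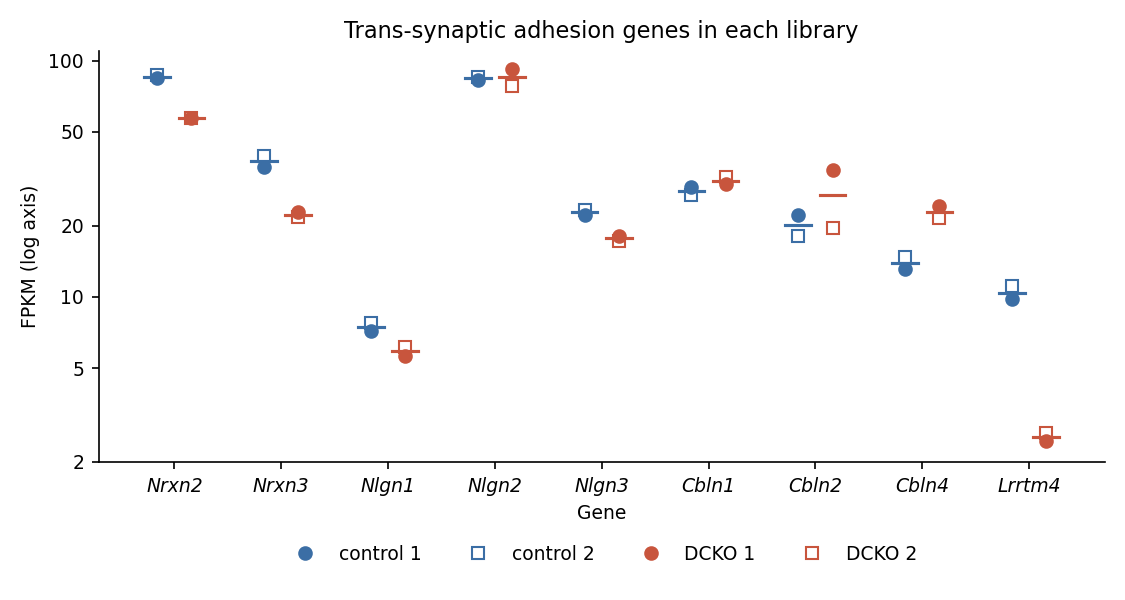
FPKM of each adhesion gene (log axis) in the 4 libraries, with controls in blue, DCKO in red, filled circles for replicate 1, open squares for replicate 2 and a bar at each group mean. Lrrtm4 shows the widest gap between groups, from a mean of 10.4 to 2.55 FPKM, and Cbln2 the widest spread within a group, at 34.4 and 19.6 FPKM in DCKO.

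Both neurexins in the group were lower in the mutant bulbs. Nrxn2 (chromosome 19, 6418731 to 6544169, + strand, GRCm38, protein-coding) measured 84.5 and 86.9 FPKM among control libraries against 57.5 and 57.3 FPKM in DCKO. The controls were the 2 highest libraries, and each pair lay close together. The mean was 33.0% lower (85.7 ± 1.72 against 57.4 ± 0.206 FPKM, SD, n = 2 per group), a log2 change of -0.57 (SE 0.06, 95% confidence interval -0.73 to -0.41, limma adjusted p = 0.00616). Nrxn3 (chromosome 12, 88722876 to 90334935, + strand, protein-coding) measured 35.6 and 39.4 FPKM among control libraries against 22.8 and 21.8 FPKM in DCKO. Again both DCKO libraries lay below both controls. The Nrxn3 mean was 40.6% lower (37.5 ± 2.65 against 22.3 ± 0.743 FPKM), with a log2 change of -0.72 (SE 0.08, 95% confidence interval -0.93 to -0.52, limma adjusted p = 0.00630). In GENCODE M21 the antisense Gm14964 and the opposite-strand Slc22a12 (0.0373 to 0.334 FPKM) overlap Nrxn2, and unclassified or miRNA genes on both strands overlap Nrxn3. An antisense gene also overlaps Nlgn1 (A830092H15Rik) and Lrrtm4 (Gm4409), and the opposite-strand lincRNA Gm2694 overlaps Cbln1. Whether the counting used strand is not known here, so fragments of such pairs cannot be told apart.

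The FPKM ratio of Nrxn2 to Nrxn3 was 2.37 and 2.21 among control libraries against 2.52 and 2.63 in DCKO, with no overlap between groups. Of 6 such ratios between family members, given here and below, none can reach a p below 0.333 in the exact two-sided permutation test of 2 libraries against 2, and this one gave that value.

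**Figure D2:**
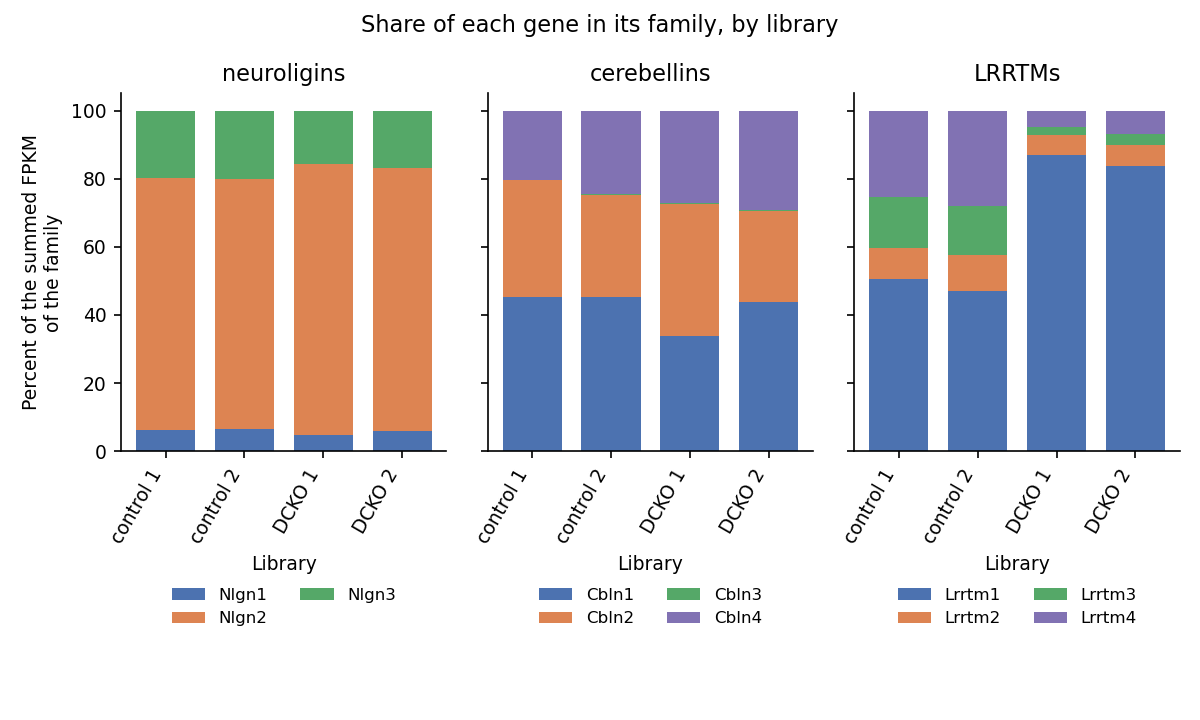
Share of each gene in the summed FPKM of its family (percent, stacked bars) in each of the 4 libraries, for neuroligins, cerebellins and LRRTMs. Lrrtm1 took 46.9% to 50.6% of the LRRTM sum among control libraries against 83.7% to 86.9% in DCKO, while the neuroligin shares moved by less.

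Nrxn3 differed from the other members in how many fragments stood behind each unit of FPKM. FPKM divides fragments by transcript length, so the deposited scaled count per FPKM is larger when fragments are assigned to longer transcripts of a gene. For Nrxn3 this ratio was 169.2 and 170.8 scaled counts per FPKM among control libraries against 139.8 and 137.3 in DCKO, 18.5% lower in the mutant bulbs. The controls differed from each other by far less than from either mutant. The library medians over all genes were between 52.4 and 53.4. The comparison was chosen after the data were seen. Limma on the log2 ratio, with library medians set equal, gave a Nrxn3 change of -0.30 (SE 0.02, 95% confidence interval -0.35 to -0.25, adjusted p = 0.0292 over 12952 genes with at least 20 scaled counts in every library). Calls were rare, at 2 lower genes (0.0154%) and 1 higher gene (0.00772%), together 0.0232% of those tested, and Nrxn3 was 1 of the 2 lower ones. Its absolute change ranked 14 among the 12952, against a median absolute change of 0.02. The estimate stayed between -0.30 and -0.298 when any 1 library was left out. The number of genes called did not stay stable, and rose to 1311 without control 1, 95 without control 2, 39 without DCKO 1 and 43 without DCKO 2. None of the other 8 members was called by limma, with absolute changes of at most 0.097 and unadjusted p below 0.05 for Nlgn1 and Lrrtm4; without control 1, however, Nrxn2, Nlgn1 and Lrrtm4 passed as well. The deposited values do not separate transcripts, and how the count columns were made is not known here. Whether the lower ratio reflects a change among Nrxn3 transcripts was not tested.

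The choice of scale therefore sets the size of the Nrxn3 decrease. The scaled counts of Nrxn3 were 6024 and 6723 among control libraries against 3187 and 2986 in DCKO. On log2(scaled count + 1) its change was -1.04, against -0.72 on log2(FPKM + 1). For Nrxn2 the corresponding changes were -0.51 and -0.57.

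**Figure D3:**
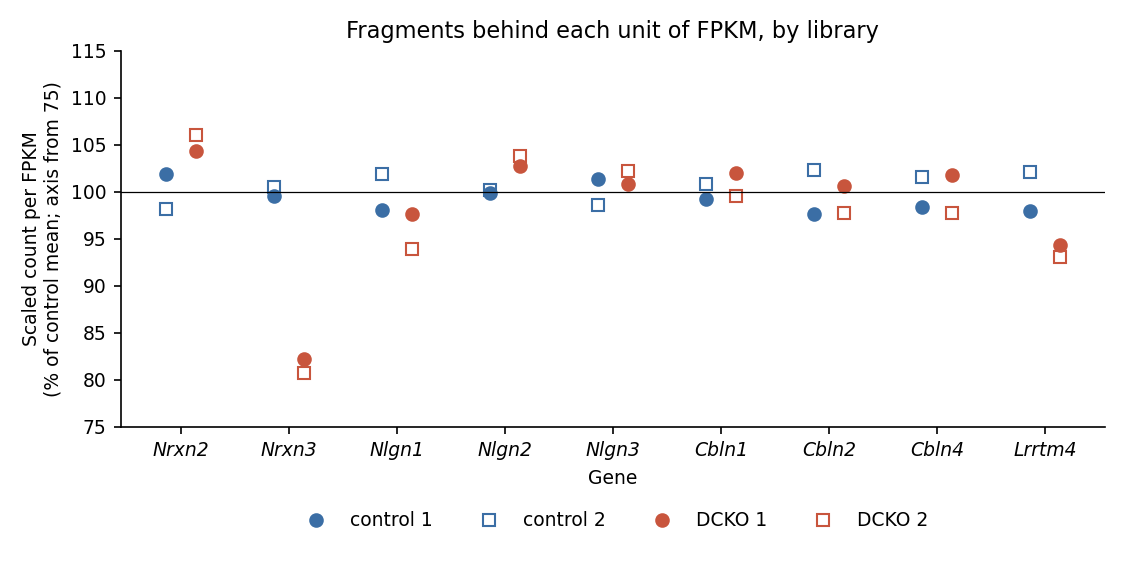
Scaled count per FPKM as a percent of the control mean of the gene (axis from 75) for the 9 adhesion genes, with controls in blue, DCKO in red, filled circles for replicate 1 and open squares for replicate 2. Both DCKO libraries of Nrxn3 lie far below 100, at a mean 18.5% lower, while the farthest of the others in that direction, Lrrtm4, has a mean 6.28% lower.

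Of the neuroligins, the classical postsynaptic ligands of neurexins, only Nlgn3 passed the test. Nlgn3 (chromosome X, 101299168 to 101325963, + strand, protein-coding), which is found at both glutamatergic and GABAergic synapses, stood at 22.3 and 23.5 FPKM among control libraries against 18.2 and 17.2 FPKM in DCKO. Both mutant libraries were below both controls. The mean was 22.6% lower, a shift of -0.35 in log2 (SE 0.07, 95% confidence interval -0.53 to -0.17, limma adjusted p = 0.0253). This call was lost without control 1 (adjusted p = 0.0835), control 2 (0.151) or DCKO 2 (0.0545). Nlgn3 is X-linked, and without DCKO 1, the library with Xist, its change was -0.39 (adjusted p = 0.0458).

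Nlgn1 (chromosome 3, 25426215 to 26332460, - strand, protein-coding), best known from glutamatergic synapses, stood at 7.16 and 7.78 FPKM among control libraries against 5.62 and 6.15 FPKM in DCKO. The groups did not overlap, but the change of -0.30 did not pass (SE 0.09, 95% confidence interval -0.53 to -0.06, limma adjusted p = 0.0678). On scaled counts Nlgn1 was called lower (-0.41, adjusted p = 0.0260). Nlgn2 (chromosome 11, 69823122 to 69837784, - strand, protein-coding), the neuroligin of GABAergic synapses, had overlapping groups at 82.8 and 85.6 FPKM among control libraries against 92.0 and 78.6 FPKM in DCKO. Its change was 0.01 (95% confidence interval -0.23 to 0.26, limma adjusted p = 0.918). A change of a size within this interval, in either direction, is not excluded by these 2 libraries per group. The sign turned negative without control 1 (-0.01) or DCKO 1 (-0.10).

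In controls Nlgn2 and Nrxn2 were the most abundant of the 9 genes on the FPKM scale, at 84.2 and 85.7 FPKM on average, and their values overlapped. In DCKO the 2 genes separated, with Nlgn2 at 85.3 and Nrxn2 at 57.4 FPKM. The ratio of Nlgn2 to Nlgn3 was 3.71 and 3.65 among control libraries against 5.07 and 4.56 in DCKO. That of Nlgn2 to Nlgn1 was 11.6 and 11.0 among control libraries against 16.4 and 12.8 in DCKO. Neither ratio overlapped between groups (exact permutation p = 0.333 for each, the smallest the design allows). The summed neuroligin FPKM did overlap, at 112.3 and 116.8 among control libraries against 115.8 and 102.0 in DCKO.

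**Figure D4:**
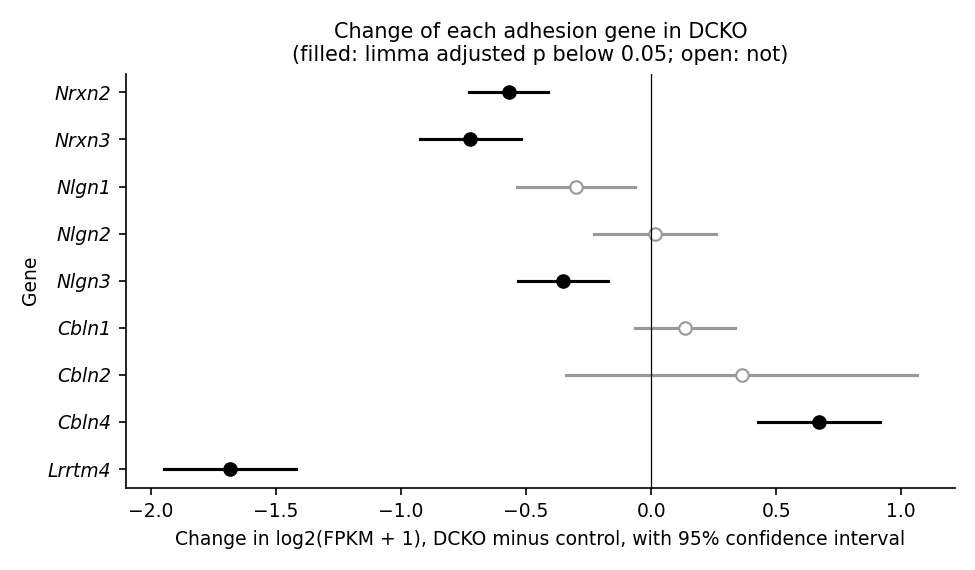
Change in log2(FPKM + 1), DCKO minus control, with its 95% confidence interval from limma for each of the 9 adhesion genes (points), filled where the adjusted p was below 0.05. Lrrtm4, Nrxn3, Nrxn2 and Nlgn3 lie below 0 and Cbln4 above it, while the interval of Cbln2 reaches from -0.34 to 1.06.

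The cerebellins moved the other way or did not pass. Cbln4 (chromosome 2, 172036233 to 172043466, - strand, protein-coding), a secreted neurexin ligand of the C1q family, stood at 13.2 and 14.7 FPKM among control libraries against 24.2 and 21.5 FPKM in DCKO. Both mutant libraries exceeded both controls. The mean was 1.64-fold higher (13.96 ± 1.09 against 22.8 ± 1.89 FPKM, SD, n = 2 per group), with a log2 change of 0.67 (SE 0.09, 95% confidence interval 0.43 to 0.92, limma adjusted p = 0.0114).

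Cbln1 (chromosome 8, 87468405 to 87472609, - strand, protein-coding), the cerebellin that joins neurexins to the delta receptor at cerebellar synapses, stood at 29.3 and 27.1 FPKM among control libraries against 30.0 and 32.2 FPKM in DCKO. The groups did not overlap, yet the change of 0.14 did not pass (95% confidence interval -0.06 to 0.33, limma adjusted p = 0.237). Cbln2, a close relative on chromosome 18, stood at 22.2 and 18.1 FPKM among control libraries against 34.4 and 19.6 FPKM in DCKO. Only DCKO 1 was high, and the other 3 libraries lay close together. The change was 0.36 (SE 0.27, limma adjusted p = 0.352). It was 0.75 without DCKO 2 (adjusted p = 0.0440) and -0.03 without DCKO 1 (adjusted p = 0.903), so 1 library decides it. Markers of the oligodendrocyte lineage were also high in that library, with a summed FPKM of 1001 in DCKO 1 and of 583 in DCKO 2, against 597 and 791 in the controls, and their part in the Cbln2 values was not tested. No gene of that list was called by limma, and 1 of 8 was higher at an unadjusted p below 0.05.

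Cbln4 lay closer to Cbln1 in level in DCKO. The ratio of Cbln4 to Cbln1 was 0.450 and 0.544 among control libraries against 0.807 and 0.668 in DCKO (exact permutation p = 0.333, the smallest possible). In controls, the order on the FPKM scale was Cbln1, Cbln2 and Cbln4, with no overlap between neighbours. In DCKO, Cbln2 overlapped both of the others. Cbln3 was close to 0 in every library, at 0.0764 to 0.270 FPKM, and was not tested.

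Lrrtm4 (chromosome 6, 80018877 to 80810143, + strand, protein-coding) had the largest change of the 9 genes. It encodes a leucine-rich repeat protein of the postsynaptic membrane that binds neurexins and heparan sulfate proteoglycans. Its values were 9.76 and 11.1 FPKM among control libraries against 2.44 and 2.66 FPKM in DCKO. Both mutant libraries were far below both controls. The mean was 4.09-fold lower (10.4 ± 0.964 against 2.55 ± 0.152 FPKM, SD, n = 2 per group), with a log2 change of -1.69 (SE 0.10, 95% confidence interval -1.95 to -1.42, limma adjusted p = 0.00168). Behind these values stood 729 and 866 scaled counts among control libraries against 176 and 189 in DCKO. From rank 8 of 9 in controls, Lrrtm4 became the gene of lowest level in DCKO, below Nlgn1.

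The LRRTM paralogs split. Lrrtm3 fell with Lrrtm4, from 5.69 and 5.68 to 1.27 and 1.22 FPKM (log2 change -1.58, limma adjusted p = 0.00187). Lrrtm1 rose, from 19.4 and 18.5 to 44.5 and 32.0 FPKM (log2 change 0.96, limma adjusted p = 0.0171). Lrrtm2 stood at 3.46 and 4.19 FPKM among control libraries against 3.01 and 2.32 FPKM in DCKO and did not pass (adjusted p = 0.103). The ratio of Lrrtm4 to Lrrtm1 was 0.503 and 0.600 among control libraries against 0.0549 and 0.0832 in DCKO. Lrrtm4 and Lrrtm3 kept overlapping ratios, at 1.71 and 1.96 among control libraries against 1.93 and 2.18 in DCKO. The summed LRRTM FPKM overlapped between groups, at 38.3 and 39.5 among control libraries against 51.2 and 38.2 in DCKO.

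For the 2 called members of largest change, the genes of nearest pattern over the 4 libraries were found by the distance between log2(FPKM + 1) profiles centred on their own means. For Lrrtm4 these were Gpr83 (distance 0.0544), Dlx6 (0.0636) and Ankrd6 (0.0832). For Nrxn3 they were Slc25a23 (0.0250), Apc (0.0278) and St6galnac3 (0.0326). With 4 libraries in 2 groups, such a pattern holds little beyond the group difference.

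Genes of the wider trans-synaptic network were taken from 6 lists, of which 4 hold ligands, receptors, inhibitors and scaffolds of neurexins, neuroligins and cerebellins, and the others hold further synaptic adhesion genes. Of the 83 tested genes in all 6 lists, 36 fell and 16 rose, with a median log2 change of -0.25. Over all tested genes 14.3% fell and 13% rose, with a median of -0.02. These shares are the background for the count of each list below. The lists were chosen with earlier results of these data known, so the comparison is not an independent one. In the list of neuroligin inhibitors and postsynaptic scaffolds, 13 of 15 tested genes fell, and none rose by limma (also none at an unadjusted p below 0.05). Mdga1, a glycosylphosphatidylinositol-anchored protein that blocks the binding of neuroligins to neurexins, fell from 32.8 and 32.5 to 10.4 and 6.92 FPKM (log2 change -1.82, limma adjusted p = 0.00504). The scaffold genes Shank1 (-1.48), Dlgap2 (-1.42) and Dlg4, which encodes PSD-95 (-1.10), fell as well, with adjusted p of 0.00130 to 0.00303. Magi2 and Mdga2 did not pass. Between 10 and 13 genes of this list were called lower when any 1 library was left out.

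In the list of neurexin ligands, which includes the LRRTM paralogs, 3 of 14 tested genes fell and 4 rose. Nxph1, a secreted neurexophilin that binds alpha neurexins, fell from 22.7 and 24.7 to 2.80 and 3.63 FPKM, 7.38-fold lower (log2 change -2.56, SE 0.12, limma adjusted p = 0.00110). Gpc4, a glypican that binds Lrrtm4, rose from 4.89 and 3.77 to 6.35 and 7.12 FPKM (0.54, adjusted p = 0.0420). The Gpc4 call was lost without control 2 (adjusted p = 0.160), DCKO 1 (0.0867) or DCKO 2 (0.124). The number of higher genes in this list was 2 without control 1, 1 without control 2 and 2 without DCKO 1.

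Among delta receptors and C1q-like proteins, 2 of 6 tested genes fell and 2 rose. C1ql2, a secreted relative of the cerebellins, fell from 4.25 and 4.25 to 0.687 and 0.411 FPKM (log2 change -1.77, limma adjusted p = 0.00315). Bai3, the adhesion receptor of C1q-like proteins, fell from 15.9 and 16.8 to 9.66 and 8.93 FPKM (-0.75, adjusted p = 0.00580). C1ql3 rose from 1.40 and 2.12 to 4.37 and 3.47 FPKM (0.84, adjusted p = 0.0296), as did Grid1, a delta receptor reached by cerebellins, from 9.41 and 10.5 to 13.4 and 14.1 FPKM (0.43, adjusted p = 0.0244). The C1ql3 call was kept when control 2 was left out and lost without any other library, and the Grid1 call was lost without any 1 of the 4. For C1ql3 the adjusted p was 0.0621 without control 1, 0.102 without DCKO 1 and 0.0540 without DCKO 2. For Grid1 it was 0.123 and 0.0556 without control 1 and 2, and 0.0585 and 0.0658 without DCKO 1 and 2. The number of higher genes was then 0 without control 1, DCKO 1 or DCKO 2 and 1 without control 2.

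The list of neurexin scaffolds was split, with 3 of 11 lower and 4 higher. Whether each listed gene acts with neurexins in these bulbs was not tested. Mpp2, a membrane-associated guanylate kinase, fell from 52.5 and 52.3 to 16.8 and 17.5 FPKM (log2 change -1.56, limma adjusted p = 0.000803). The adaptor genes Apba1 (0.53) and Apba2 (0.53) and the PDZ protein gene Sdcbp (0.50) rose, with adjusted p of 0.00801 to 0.0110. The Sdcbp call was lost without control 2 (adjusted p = 0.0529). The number of lower genes in this list was then 1.

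**Figure D5:**
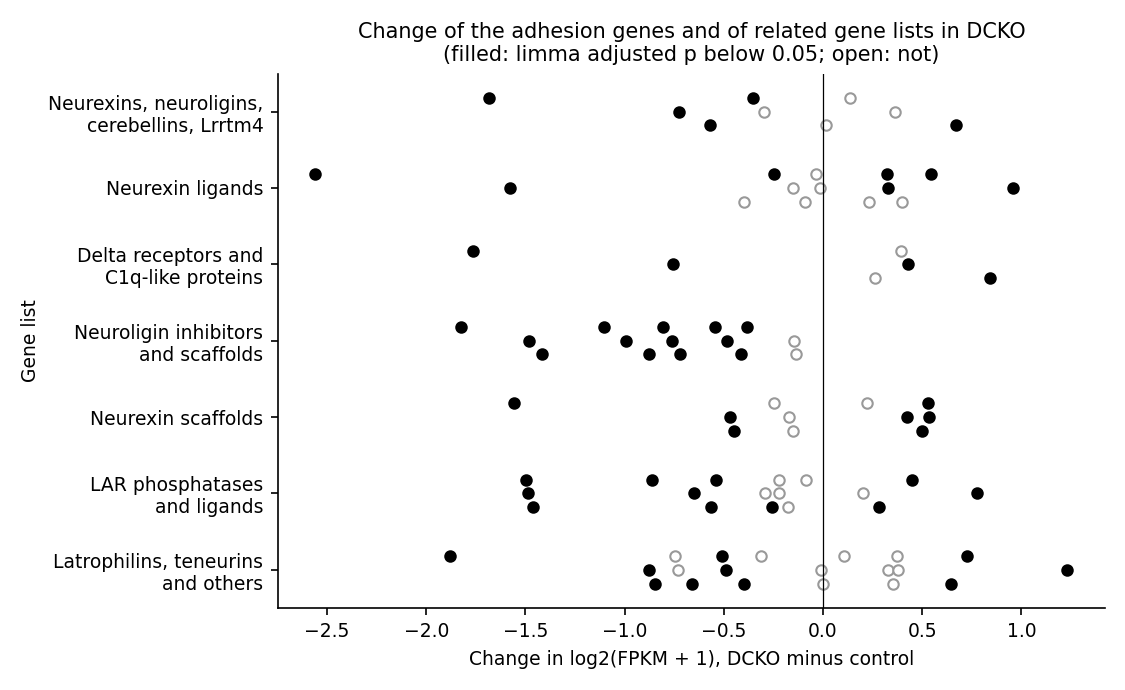
Change in log2(FPKM + 1), DCKO minus control, of each tested gene (points, filled where the limma adjusted p was below 0.05) in the adhesion group and in 6 lists of partner and further synaptic adhesion genes. All 13 called genes of the neuroligin inhibitor and scaffold list lie below 0, while the other lists hold called genes on both sides.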

How the data were processed

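Total RNA of olfactory bulbs was sequenced in 2 control and 2 DCKO libraries. TopHat, Cufflinks 2.1.1 and GRCm38.p4 are named, with no role or order, per the submitters' processing notes. No source used here gives the annotation, or whether counting used strand. The deposited table holds FPKM made by the authors, per the file headers, and columns headed count. The latter are treated as a signal that the authors scaled by library, since they are not whole numbers, so no count model was used. Columns were mapped by the codes in the sample descriptions, with 0 left unmapped.

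DCKO was compared with control by limma 3.58.1 (R 4.3.3) on log2(FPKM + 1) with a variance trend, over the 13434 genes whose mean reached 1 FPKM, two-sided, with p-values adjusted by Benjamini-Hochberg over all of them. The fit was also run on simulated data in which a far smaller part of the genes changed than was called here. That run is not used for the results. The log2 scale with this pseudocount understates changes of low genes. Coordinates come from GENCODE M21 (GRCm38).

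The members and lists were chosen with earlier results of these data known. Named are the 9 members, Sp8, Sp9, up to 4 called genes of largest change per list of partner and further adhesion genes and the 3 nearest patterns of 2 members. Lrrtm2, Cbln3, Xist, Ddx3y, Eif2s3y, Mdga2, Magi2, Meg3, Gm7120, Ptprd, Ptprs, Il1rap and the overlapping genes were named after their values were seen. Another 2 genes of these lists are not reported here, and the lists' counts and medians leave them out. Listed genes under other symbols were matched as Car10, Car11, Bai3, Lphn1 to Lphn3, Tenm1 to Tenm4 and Cdhr1. Alternatives covered the pseudocount, filter, scaling, variance trend, replicate block, single libraries and the scaled counts.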

Additional observations from a re-analysis of the deposited data

How the results depend on the processing

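With 2 libraries per group, each fit without 1 library assumes that the lone sample varies like the other group. Leaving out 1 library gave 1030 to 1875 lower and 806 to 1384 higher genes over the table, 3 to 4 lower members and 1 to 2 higher members, Cbln2 being the second higher one without DCKO 2. The log2 change then ranged from -0.0975 to 0.13 for Nlgn2 (-0.00824 without control 1) and from -0.0269 to 0.75 for Cbln2. Lrrtm4, Nrxn3, Nrxn2 and Cbln4 kept their direction and call in all 14 alternatives, with log2 changes of -2.12 to -1.60, -1.04 to -0.65, -0.59 to -0.51 and 0.59 to 0.75. A replicate block, by a number that the labels share between genotypes, called 1418 lower and 1312 higher genes and 3 lower members, with Nlgn3 at adjusted p = 0.0531. Deviations of same-numbered libraries correlated at -0.0211, so the numbers are not taken to pair the samples. In that block fit the Nrxn3 change in scaled count per FPKM was -0.30. The edgeR tests on recovered reads were not run, because whole reads could not be recovered for all genes. In DCKO, Lrrtm4 had the lowest scaled counts of the 9 members, at 176 and 189. Gpc4 (adjusted p = 0.0655) and C1ql3 (0.0503) were not called with the block, nor without a filter (0.0873 and 0.0661).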

Other observations

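Further families of synaptic adhesion genes held called genes in both directions. Over all tested genes 14.3% fell and 13% rose, and the counts of higher genes in both lists below were close to the latter share. Of 17 tested genes of the LAR-type receptor phosphatases and their ligands, 8 fell and 3 rose. The postsynaptic ligands Il1rapl1 (2.909 and 3.301 FPKM in the controls, 0.440 and 0.470 in DCKO, log2 change -1.49), Slitrk4 (-1.48), Slitrk3 (-1.46) and Slitrk5 (-0.86) fell, with limma adjusted p of 0.00185 to 0.00567. The phosphatase genes Ptprd and Ptprs and the ligand gene Il1rap were the 3 that rose. Leaving out any 1 library left 1 higher gene, and 5 lower ones without control 2, DCKO 1 or DCKO 2 (6 without control 1).

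Of 20 tested genes in a list of latrophilins, teneurins, FLRTs, netrin-Gs and their ligands, SynCAMs and the ELFN pair, 7 fell and 3 rose. Elfn1, a postsynaptic protein that recruits presynaptic metabotropic glutamate receptors, fell from 9.30 and 11.1 to 1.77 and 2.31 FPKM (log2 change -1.88, limma adjusted p = 0.00258). Its relative Elfn2 (-0.88) and the netrin-G ligand gene Lrrc4 (-0.85) fell too. Ntng2, which encodes netrin-G2, rose from 3.12 and 5.31 to 10.6 and 11.4 FPKM (1.23, adjusted p = 0.0179), but this call was lost without DCKO 1 (adjusted p = 0.0687) or DCKO 2 (0.0704). Without control 1, DCKO 1 or DCKO 2, 1 gene of this list was called higher.

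The other 2 genes called for the scaled count per FPKM were Gm7120 and the noncoding RNA gene Meg3. The ratio was 22.1 and 21.4 in the controls and 14.8 and 14.5 in DCKO for Gm7120 (limma adjusted p = 0.0135). For Meg3 it was 127.5 and 130.2 in the controls and 167.1 and 163.2 in DCKO (adjusted p = 0.0185). None of the 82 tested genes of the 6 lists of partner and further synaptic adhesion genes was called in that fit, where 354 of 12952 genes had an unadjusted p below 0.05.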
